A study of Mus musculus with 2 samples.

Results

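The cytosolic ribosomal protein genes examined here were the protein-coding genes of GENCODE release M21 whose symbol is Rpl or Rps followed by a digit, without the Rps6k kinases and the symbols that mark pseudogenes. This rule took 82 of 21951 protein-coding genes. Of these, 49 carry an Rpl symbol (large subunit) and 32 an Rps symbol (small subunit), and 1, Rps19bp1, encodes a protein that binds Rps19 and is not itself a ribosomal protein. Prrc2a RIP-seq, in which an antibody against Prrc2a pulls down the protein with the RNA it holds, was performed on whole brain of male wild type C57BL/6J mice at 4 weeks of age. There were 2 replicates of this single condition, no other genotype or treatment, and a protocol that describes 3 brains without saying how they were divided. After preclearing with goat IgG, the RNA on the antibody beads was trimmed with micrococcal nuclease, depleted of rRNA and sequenced. Peaks were called in each replicate separately, and each deposited peak has a fold enrichment, a linear ratio over a control library that the methods do not identify.

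Each mature 80S ribosome holds a large and a small subunit, and their proteins are made from a set of short mRNAs that are among the most abundant in nearly every cell, brain cells included. Most of these mRNAs begin with a 5′ terminal oligopyrimidine tract, through which their translation is coupled to growth signalling. The mouse genome also carries many processed pseudogenes of these genes, which repeat long stretches of the mRNA. Prrc2a was studied as a protein that binds mRNA carrying m6A, a methylated adenosine often found in the motif GGAC and often near stop codons. The question addressed here is whether peaks, that is enrichment over the control library, were called on short and abundant mRNAs. An mRNA that Prrc2a holds only in proportion to its amount in the control need not give a peak.

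Of the cytosolic ribosomal protein genes, Rpl29 alone had a Prrc2a peak in its exons, and in replicate 2 alone (1 of 82 genes, beside 24.1% of other protein-coding genes with a peak in either replicate). Exons of Rpl29, which encodes a lysine-rich protein of the large subunit, were overlapped by 1 peak of replicate 2 and by no peak of replicate 1. The other 81 genes had no exonic peak in either replicate. The gene lies on the plus strand of chromosome 9 of GRCm38, from position 106429454 to 106431568, with the identifier ENSMUSG00000048758. The peak covers positions 106431195 to 106431543, ends 25 bp before the end of the gene, and all of its 349 bp lie in the last exon. Of these, 252 bp are coding and the rest is the stop codon and the 3′ UTR. The coding part is shown because it is the only coding sequence of these genes that any deposited peak covers.

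Rpl29, coding part of the peak, chr9:106431195-106431446, plus strand: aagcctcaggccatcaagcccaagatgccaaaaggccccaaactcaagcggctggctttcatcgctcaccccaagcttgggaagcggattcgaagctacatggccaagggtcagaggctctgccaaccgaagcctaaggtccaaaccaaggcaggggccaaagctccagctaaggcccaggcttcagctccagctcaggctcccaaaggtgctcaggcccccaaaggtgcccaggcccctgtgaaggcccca

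These 252 bases are 52.5% of the coding sequence of Rpl29-203, the transcript used here, which has 480 coding bases before the stop codon and 228 of them ahead of the peak. They read as 84 codons, of which 17 are lysine codons (12 of them AAG), 18 alanine codons and 13 proline codons. The stretch holds no GGAC. For scale, 60.2% of 1322982 windows of 252 bases along transcripts of protein-coding genes held at least 1. The whole peak holds 1 GGAC, which starts 30 bases past the stop codon, in the 3′ UTR. It is shown in capitals because it is the only copy of the motif under the peak.

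Rpl29, 3′ UTR, chr9:106431466-106431495, plus strand: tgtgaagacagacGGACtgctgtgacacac

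A motif match is a description of the letters and does not show methylation or a binding site. The GC content of the coding part was 60.7%, and that of the whole transcript was 56.8%.

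The Rpl29 peak was one of the strongest of its replicate. Its fold enrichment was 14.8, which ranked 19 among the 18671 peaks of replicate 2, with 99.9% of them below it, and 14 among the 16084 peaks of that replicate in exons of protein-coding genes. The median fold enrichment was 2.63 over all peaks of replicate 2 and 2.84 over the 18129 peaks of replicate 1. In exons of other genes of matched length, described below, the median was 2.39 over 731 peaks of replicate 1 and 2.50 over 864 peaks of replicate 2, with highest values of 22.2 and 22.5. The peak overlapped no other gene. The nearest peak of replicate 1 to Rpl29 lay 33990 bp away, so the strong enrichment in replicate 2 had no weaker counterpart in the list of replicate 1. Whether reads of replicate 1 covered Rpl29 below the calling threshold is not known, since the files give no read counts. A single value in 1 of 2 replicates has no spread, and no test was made.

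**Figure D1:**
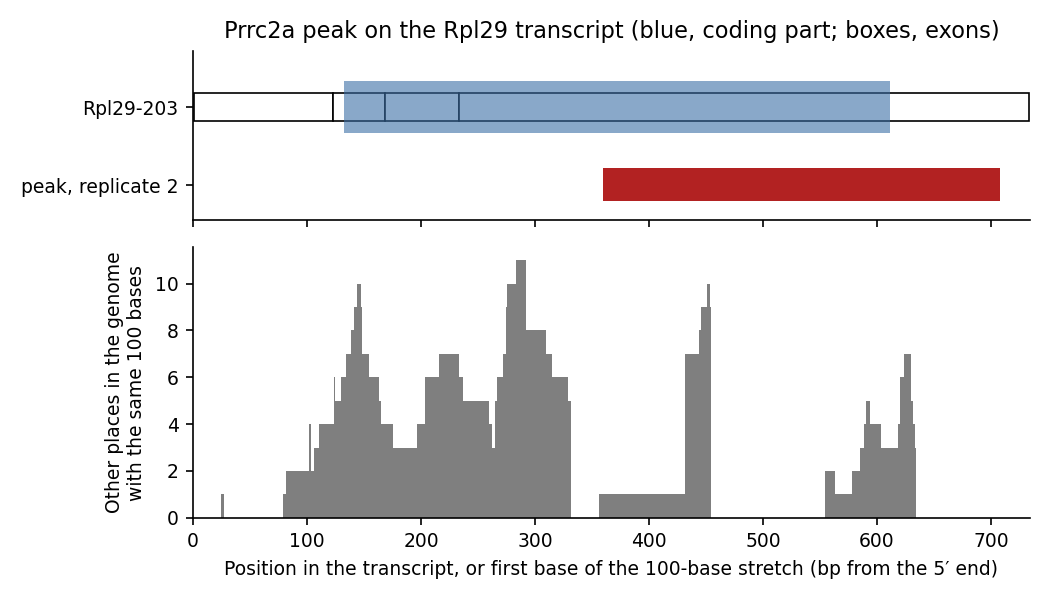
The upper panel maps Rpl29-203 along its 733 bases from the 5′ end, with exons as boxes, the coding part in blue and the peak of replicate 2 in red, from base 360 to base 708. The lower panel gives the number of other places in the genome with the same 100 bases, own introns included, at each stretch's first base. It reaches 11 for stretches that run across the start of the peak, 10 for stretches wholly ahead of it and 10 for stretches wholly within it, and it is 0 for the 100 stretches that start at bases 455 to 554.

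Read against the 21869 other protein-coding genes, the number of ribosomal protein genes with a peak was low in every way of counting. In either replicate, 1 of the 82 genes (1.22%) had an exonic peak, beside 24.1% of the other genes. In replicate 1 the number was 0, beside 16.5%. In replicate 2 it was 1, beside 21.1%. Peaks in both replicates at any position were found in 0 of the genes, beside 13.6%, and overlapping peaks of both replicates in 0, beside 11.9%. These percentages rest on all lengths of gene, and ribosomal protein genes are short: the union of their annotated exons had a median of 1736.5 bp and ranged from 374 to 6270 bp, while the median over all protein-coding genes was 3498 bp.

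The share of genes with a peak rose with exon length above 500 bp. Among other protein-coding genes, an exonic peak in either replicate was found in 2.30% of those with 501 to 1000 bp of exon, 3.75% at 1001 to 1500 bp, 5.50% at 1501 to 2000 bp, 9.98% at 2001 to 3000 bp, 18.3% at 3001 to 4000 bp and 68.6% above 10000 bp. The classes from 501 to 3000 bp held 65 of the 82 ribosomal protein genes. The shortest class, up to 500 bp, stood above the next with 7.02%, or 29 of 413 genes. Of these 29 genes, 19 were clustered histone genes, a count made after their values were seen. How many of the 413 genes are clustered histone genes is not given here, so 19 cannot be read as a high or low share. The 2 ribosomal protein genes of that class had no peak.

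**Figure D2:**
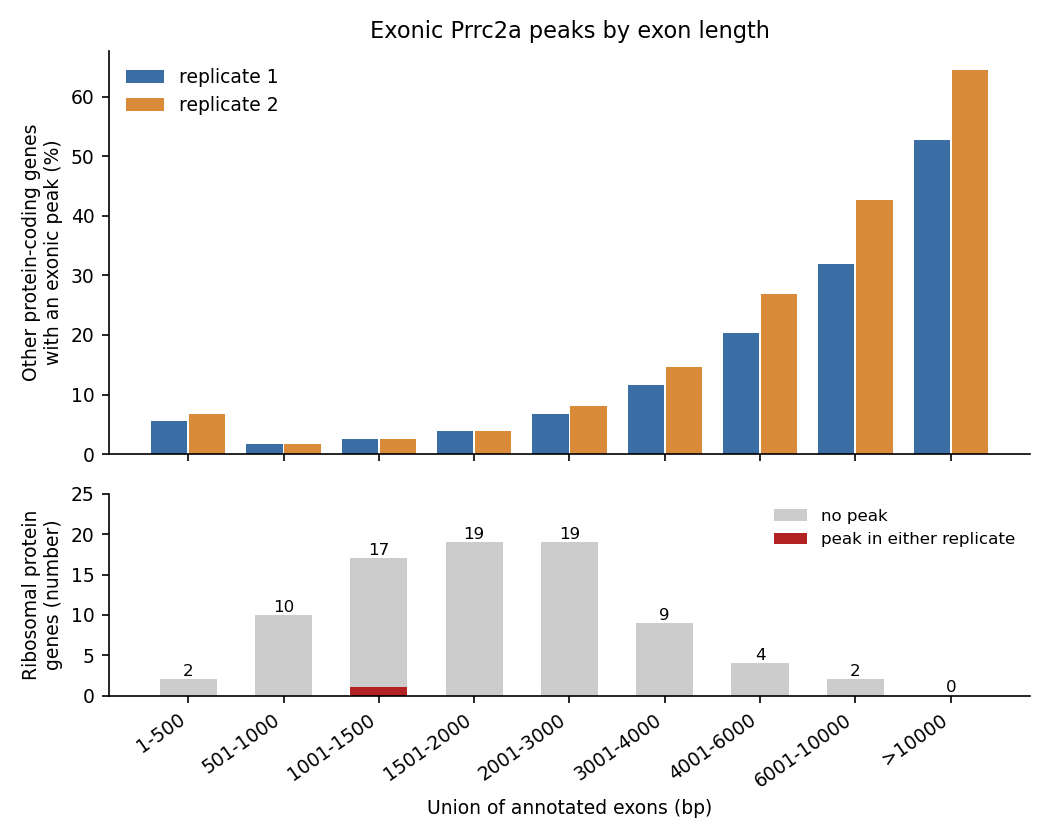
The upper panel gives, for classes of union exon length in bp, the percentage of other protein-coding genes with an exonic peak, with blue bars for replicate 1 and orange bars for replicate 2. The lower panel gives the number of ribosomal protein genes in each class, in grey without a peak and in red with a peak in either replicate. The percentages rise from 1.71% and 1.64% at 501 to 1000 bp to 52.7% and 64.5% above 10000 bp, while the only red entry is 1 of the 17 ribosomal protein genes at 1001 to 1500 bp.

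Ribosomal protein genes had fewer peaks than other genes of their own exon length. For each of the 82 genes, the 100 other protein-coding genes nearest in union exon length were taken, 5925 different genes in all. Averaged over the 82 genes, an exonic peak was found in 9.51% of these in either replicate, which over 82 genes amounts to 7.80 genes, where 1 was counted. With peaks of a fold enrichment of at least 4 alone, the percentage was 2.60%, or 2.13 genes, and the count of ribosomal protein genes was again 1. In replicate 1 the values were 0.00% of ribosomal protein genes and 6.32% of genes of matched length, and in replicate 2 they were 1.22% and 7.44%. The mean over replicates was 0.61% ± 0.862 (SD, n = 2) for ribosomal protein genes and 6.88% ± 0.793 (SD, n = 2) for genes of matched length. The spread of the ribosomal protein genes rests on counts of 0 and 1 gene, so it does not measure the uncertainty of the gap. Overlapping peaks of both replicates were found in 3.88% of the genes of matched length and in none of the ribosomal protein genes. Peaks per Mb of exon were counted over both replicates together, so a site called in both replicates counted once for each. There were 5.92 per Mb in ribosomal protein genes, from 1 peak, 124 in the genes of matched length and 288 in all protein-coding genes. The 124 takes each of the 5925 genes once, and its peaks lay in 616 of them.

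No significance is attached to these gaps, since genes are not replicates and the amount of each mRNA is not in the files. The genes of matched length were taken by length alone, whether or not brain expresses them, and include olfactory and vomeronasal receptor genes. Their percentages are therefore not rates for expressed genes. The size of the gap also depends on what is taken as the length of a gene. Many ribosomal protein genes have long non-coding or intron-retaining transcripts in the annotation, and their longest coding transcript had a median of only 910 bp, beside 2683 bp over all protein-coding genes. Matched on the longest coding transcript, the percentage of other genes with a peak fell to 5.26%, which over 82 genes amounts to 4.31 genes. By the union of exons, the 10 longest members without a peak were Rps15a (6270 bp of exon), Rps24 (6256 bp), Rps19 (4685 bp), Rps3 (4483 bp), Rps20 (4080 bp), Rpl18 (4043 bp), Rpl5 (3920 bp), Rpl12 (3598 bp), Rpl35a (3526 bp) and Rpl7l1 (3495 bp). Several of these are long by this measure alone: the longest coding transcript is 1613 bp in Rps24, 1284 bp in Rps19, 1242 bp in Rpl12 and 519 bp in Rpl35a.

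Peaks were scarce in both subunits. Of the 49 large-subunit symbols, Rpl29 alone had a peak in either replicate, beside 9.12% of other genes of matched length. Of the 32 small-subunit symbols, 0 had a peak, beside 10.1%. These include Rps6, the small-subunit protein that S6 kinases phosphorylate, and Rps3, which lines the mRNA entry channel. The difference between the subunits rests on 1 gene and was not tested. Among the members, 8 are paralogs or copies by symbol: Rpl3l, the muscle form of Rpl3, Rpl10l, a retrogene of the X-linked Rpl10, and Rpl7l1, Rpl22l1, Rpl36al, Rpl39l, Rps27l and Rps27rt. None of these 8 had a peak, beside 6.75% of genes of matched length. Rps19bp1 had none either. Finally, 7 genes that the symbol rule leaves out, among them Rpsa, Rplp0 and Rack1, encode further proteins of the ribosome or bound to it, and 0 of these 7 had a peak, beside 10.3%.

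Other genes of the protein-making and energy-making machinery were counted in the same way, to see whether the scarcity was shared. Among 78 mitochondrial ribosomal protein genes, which serve translation inside mitochondria, 7 (8.97%) had a peak in either replicate, beside 16.4% of genes of matched length, and 0 had overlapping peaks in both replicates. Their largest fold enrichments were 3.85 in Mrps35, 2.97 in Mrpl48 and 2.88 in Mrpl3, each in replicate 2 alone, all below the 14.8 of Rpl29. Among 90 genes for subunits of the respiratory chain and of ATP synthase, whose exons have a median of 1525.5 bp, 2 (2.22%) had a peak, beside 9.58%. One was Ndufa13, an accessory subunit of complex I, with a fold enrichment of 2.54 in replicate 1 and no peak in replicate 2.

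Among 68 genes with symbols of translation initiation or elongation factors, 8 (11.8%) had a peak, beside 24.4%, and 4 had overlapping peaks in both replicates. Those 4 were Eif4e2, a cap-binding protein (largest fold enrichment 2.48 in replicate 1 and 5.73 in replicate 2), Eif2ak3, the kinase PERK (2.12 and 3.23), Eif4ebp2, which binds and restrains the cap-binding factor (1.66 and 2.97), and Eif2ak4, the kinase GCN2 (2.94 and 2.06). The other 4 genes with a peak were Eif5b, Eif4g1, Eif1a and Eef2k, named after their values were seen. The percentage of genes with a peak was below that of matched length in each of these lists and for the ribosomal proteins, and the differences between the lists were not tested.

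**Figure D3:**
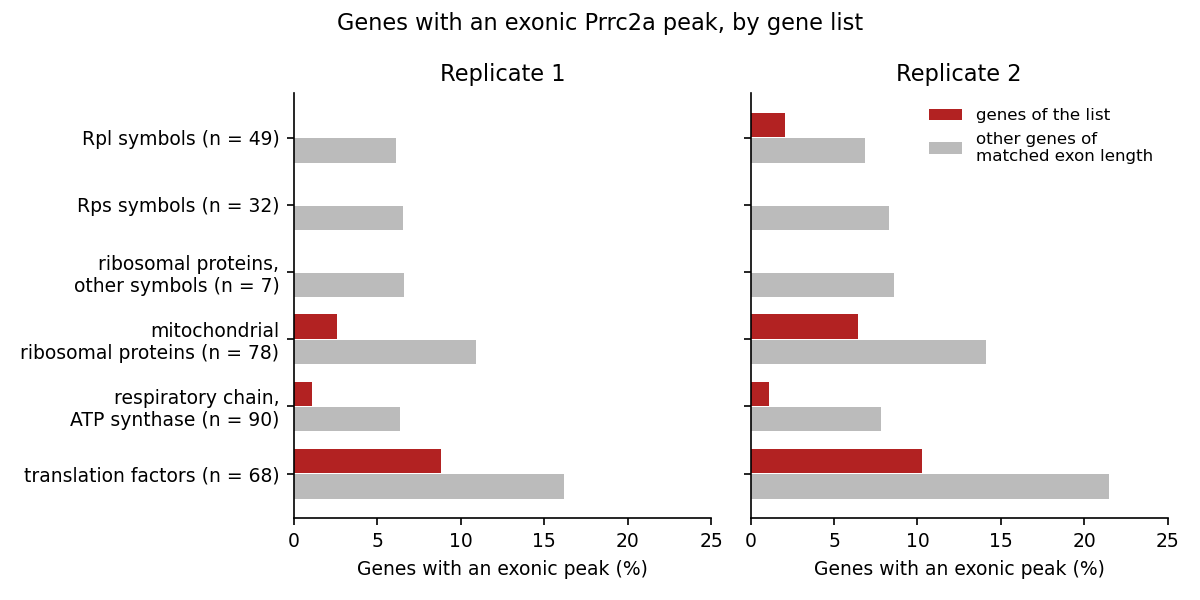
Horizontal bars give the percentage of genes with an exonic peak in replicate 1 (left) and replicate 2 (right), in red for the genes of each list and in grey for other genes of matched exon length. For every list the red bar is shorter than the grey bar in both replicates. The lists of Rps symbols and of ribosomal proteins with other symbols have no red bar, and that of Rpl symbols reaches 2.04%, from Rpl29, in replicate 2.

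Peaks were not missing from the surroundings of these genes. A peak lay inside the gene or within 10000 bp of it for 18 of the 82 genes (22.0%), beside 22.4% of the 5925 genes of matched length. These shares include genes with a peak inside, which were a smaller part of the ribosomal protein genes. Genes with a peak only outside therefore made up more of the 22.0% than of the 22.4%, a difference that was not tested. Inside the gene, introns included, a peak lay in 2 genes (2.44%), beside 11.7%. The second of these, besides Rpl29, was Rps14, a small-subunit protein gene on chromosome 18 whose loss is known from the human 5q- syndrome. Its peak, from replicate 2, was 278 bp wide with a fold enrichment of 3.64. It lay in an intron of Rps14 and over an exon of Ndst1, a heparan sulfate-modifying enzyme gene on the opposite strand, and the deposited lists hold no strand. Counting up to 1000 bp from the gene, with peaks inside it again included, 6 genes (7.32%) had a peak, beside 13.3% of the genes of matched length. Besides Rpl29 and Rps14 these were 4 genes with a peak outside the gene, all in replicate 2: it was 121 bp from Rps29, 464 bp from Rpl3, 562 bp from Rps21 and 895 bp from Rpl7. The median distance from a ribosomal protein gene to the nearest peak of either replicate was 38213 bp.

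The introns of ribosomal protein genes are also the source of many small nucleolar RNAs, which guide the modification of rRNA. In 28 of the 82 genes there were 54 annotated small nucleolar RNA genes on the same strand, and 0 of these had a peak, beside 25 of 1504 other small nucleolar RNA genes (1.66%). Likewise, 0 of 283 ribosomal protein pseudogenes, identified by symbol, had a peak in either replicate, beside 70 of 9953 other processed pseudogenes (0.703%). With backgrounds this low, neither 0 says anything particular to these genes.

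The mRNAs of these genes differed from those of other genes of matched length in how often their sequence recurs in the genome. The authors kept only reads that map to a single place, and a read from a stretch repeated in a pseudogene has no single place. For one transcript per gene, each stretch of 100 bases was therefore looked up in the GRCm38 genome on both strands. A stretch that runs only a few bases past an exon junction can match the gene's own intron. Such a match was counted as found elsewhere, so very small shares need not mean repeated sequence. In the median ribosomal protein gene, 40.6% of these stretches were also found elsewhere, with a range from 0.283% in Rpl39l to 99.6% in Rps27. Among 800 other genes, the 10 nearest in exon length to each member, the median was 0.717%. The share exceeded 50% in 32 of the 82 ribosomal protein genes (39.0%) and in 59 of the 800 others (7.38%). With stretches of 50 bases the medians were 51.8% and 1.25%.

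The highest shares of repeated sequence, besides that of Rps27, were 94.4% in Rps6, 93.9% in Rpl23a and 91.7% in Rpl36a. The lowest, besides that of Rpl39l, were 0.41% in Rpl22, 0.62% in Rpl32, 0.677% in Rps19bp1 and 0.719% in Rps3. In 15 ribosomal protein genes under 10% of the stretches recurred, and 0 of these 15 had a peak. Of the 15, 6 are paralogs or not ribosomal proteins (Rpl10l, Rpl39l, Rpl3l, Rpl7l1, Rps27l and Rps19bp1). Some low shares describe a long transcript with little coding sequence: Rps15a was read from 5179 bases (390 coding) and Rps20 from 3706 bases (357 coding). Among the 10 other genes nearest in exon length to each of these 15, 126 were under the same limit, and 23 of them (18.3%) had a peak. Nearness here is by union exon length, so it carries the limit of that measure given above. The part of repeated sequence in the scarcity of peaks was not tested. How often mate pairs placed a read that its own bases could not place is also unknown.

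Rpl29 itself stood high in this measure. Of the 634 stretches of 100 bases in Rpl29-203, 434 (68.5%) were found elsewhere, each at up to 11 other places. Of the 250 stretches wholly inside the peak, 150 (60.0%) recurred, and of the 260 wholly ahead of it, 185 (71.2%) did. The peak was therefore called over a region of which only part is unrepeated.

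**Figure D4:**
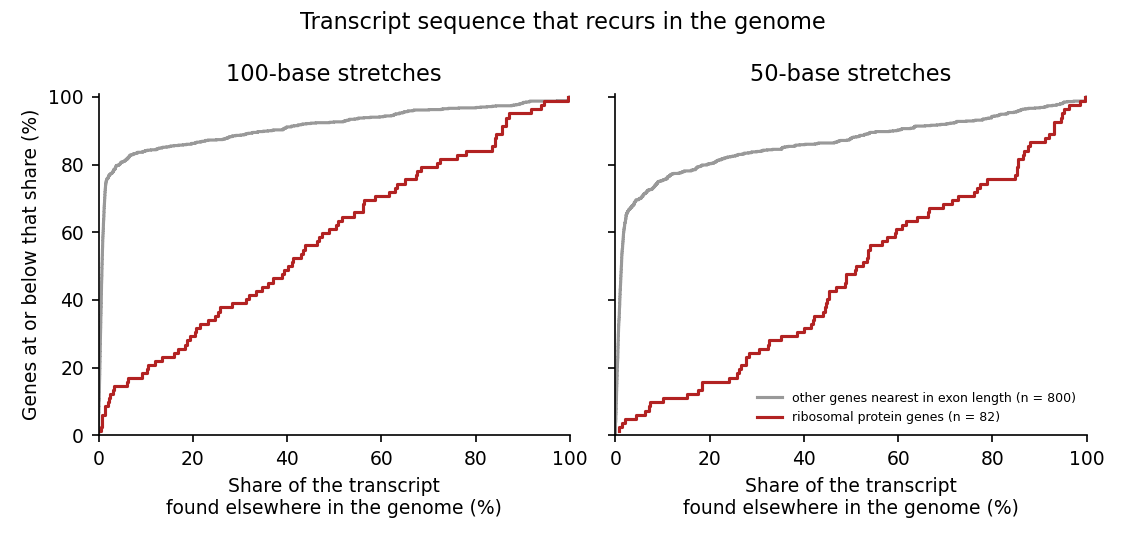
Cumulative curves give the percentage of genes (vertical axis) at or below a given share of transcript stretches found elsewhere in the genome (horizontal axis, %), for stretches of 100 bases (left) and 50 bases (right). The red curve of the 82 ribosomal protein genes climbs slowly across the whole axis, with a median of 40.6% at 100 bases, while the grey curve of the 800 other genes nearest in exon length has a median of 0.717%.

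In base composition, the medians of ribosomal protein transcripts and of genes of matched exon length lay close together. In the density of the motif, the ribosomal protein median was somewhat lower. The transcripts used were shorter in the ribosomal protein genes (857.5 bases at the median, beside 1618 bases). GGAC was present in 81 of the 82 transcripts, Rpl19 being the exception, with a median of 3 copies per transcript, beside 7 in the genes of matched exon length. The density was 3.61 copies per kb at the median, beside 4.08 in 5896 other genes of matched length. Of those, the 614 with a peak had 4.92 and the 5282 without a peak had 3.96. The median GC content was 51.2% in ribosomal protein transcripts and 50.2% in genes of matched length, with 54.4% in those with a peak and 49.7% in those without. Among genes of matched exon length, those with a peak had 12 copies in transcripts of 2602.5 bases at the median, and those without a peak had 6 copies in 1544 bases. Whether the number of sites bears on the presence of a peak was not tested.

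At the 5′ end, a start with C followed by 4 pyrimidines, the simplest form of the terminal oligopyrimidine tract, was read from RefSeq gene starts on GRCm38. It was present at 13 of the 63 ribosomal protein genes that could be matched (20.6%) and at 435 of 16459 other protein-coding genes (2.64%). Annotated starts can differ by a few bases from the start in use, so these counts describe the annotation.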

How the data were processed

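Peak lists of 2 Prrc2a RIP-seq replicates from wild type whole brain were used. Per the labels and the study's methods, the authors removed adaptors and short reads, aligned the rest to mm10 (TopHat2 2.0.9 in the submitters' processing notes, a later release in the study's methods), filtered for unique alignments of mapping quality 20 or more, and ran MACS2 (2.0.10 in those notes) at an FDR of 0.05. The deposited values are each peak's position and its fold enrichment, a linear ratio. They carry no strand, gene, p-value or read count, so depth and precision are unknown, and absence of a peak and too few reads cannot be told apart. Nor does absence of a peak show that Prrc2a did not hold an mRNA, since a peak marks enrichment over the control.

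Both ends of a peak count from 1, as the narrowest width of 200 bp shows. Peaks were intersected with the union of all exons of each GENCODE M21 gene by bedtools 2.31.1, with a minimum overlap of 1 bp, and every overlapped gene was counted. Peaks were shared where peaks of both replicates overlapped by at least 1 bp and both overlapped exons of the gene. Genes of matched length were the 100 other protein-coding genes nearest in union exon length to each member. For sequence measures, 1 protein-coding transcript per gene was taken, of the GENCODE basic set where possible and with the longest coding sequence. Where coding sequences were equally long, the longest transcript was taken, which can add much non-coding sequence. Stretches of 100 and 50 bases were counted over 66 GRCm38 sequences. Calculations used Python 3.11.15, numpy 2.4.6, pandas 2.3.3 and matplotlib 3.10.9. The overlap functions were tested on simulated data, and 7 of 7 known answers were recovered.

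The members and the comparison lists were chosen with earlier results of these data known. Every member with an exonic peak was to be named if there were 30 or fewer, with the 10 longest of those without one. Of each comparison list, the genes with a shared peak were named if they were 5 or fewer, otherwise the 3 with the largest fold enrichment, and where none was shared, up to 3 by fold enrichment. Some genes that these rules take are not reported here. Alternatives changed 1 choice at a time: the overlap, a fold enrichment of at least 4, 1 gene per peak, the exons used, the length matching, the members and each replicate left out. No test compared groups, since there was 1 condition.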

Additional observations from a re-analysis of the deposited data

How the results depend on the processing

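The number of ribosomal protein genes with an exonic peak in either replicate was 1 under every alternative that kept replicate 2. With 1 replicate left out at a time it ranged from 0 to 1, being 0 without replicate 2. The numbers with peaks in both replicates and with overlapping peaks were 0 under every alternative run. The percentage of other genes of matched exon length moved more. It was 2.60% with a fold enrichment of at least 4, 8.68% with 1 gene per peak, 5.24% with exons of protein_coding transcripts, 5.07% with GENCODE basic exons and 5.26% when matched on the longest protein_coding transcript, against 9.51% as reported, and from 6.32% to 7.44% with a single replicate. The exons used set both the length and what counts as exonic. The fold enrichment of the Rpl29 peak has no value without replicate 2. No paired analysis was possible because there was 1 condition. Depth is unknown, so no limit can be set on weaker binding.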
